A study of Mus musculus with 6 samples.

Results

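The genes described here are 10 receptors and enzymes of purinergic signalling in cultured mouse microglia, the resident macrophages of the brain. They were chosen by symbol, and all 10 were found among the 41079 genes listed in the deposited tables. They comprise the P2Y receptors P2ry12, P2ry13, P2ry6 and P2ry2, the ATP-gated channels P2rx4 and P2rx7, the adenosine receptors Adora3 and Adora2a, and the ectoenzymes Entpd1 and Nt5e. Each had enough counts to be tested. Nt5e passed the filter on low counts through the optimized libraries only and Adora2a through the control libraries only.

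RNA was sequenced in 6 libraries of microglia from brains of C57Bl/6N mice aged 1 to 3 days, 3 of them control cultures and 3 cultures under the optimized conditions. All cells had been grown in mixed flasks fed with L-929 conditioned medium, shaken off, and then kept in serum-free medium, and according to the study's methods the brains of several pups were pooled in each flask. The methods also describe repeated harvests by shaking, weeks after isolation, so the age given is that of the pups and not of the cells. The labels give the stimulus as human TGFbeta, human IL34 and CX3CL1 at 100 ng/mL each, and the methods of the paper further name a collagen IV coating, insulin-transferrin-selenium and cholesterol, so the parts of the mixture cannot be told apart. The series asks which culture inputs stabilize microglial identity, and the comparison here is of optimized with control cultures.

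Purinergic signalling starts with nucleotides that cells release or lose on damage. ATP opens P2X channels, ATP, ADP, UTP and UDP act on G protein-coupled P2Y receptors, and surface enzymes strip the phosphates step by step until adenosine is left, which acts on receptors of its own. In microglia these receptors are known for steering process movement towards injury, phagocytosis and inflammasome activation.

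Library totals lay between 20628148 and 27261839 counts. edgeR's quasi-likelihood test called 29.8% of 14618 genes at an adjusted p under 0.05, with 14.7% higher and 15.2% lower in optimized cultures. Library size alone in place of TMM scaling moved the log2 fold change of the median gene by -0.13, and 32.3% of the genes called were then higher, against 49.1% with TMM. Of the microglial markers reported, Itgam, Cx3cr1 and Tmem119 were called higher and Aif1, Csf1r and Spi1 lower. Csf1r, the receptor on which microglial survival depends, had 2329 to 2461 CPM (counts per 1000000 after TMM scaling) in control and 1741 to 1866 CPM in optimized libraries, and Cx3cr1 had 279 to 309 and 1308 to 1331 CPM. The markers of neurons summed to 2.05 to 3.41 CPM in control and 3.93 to 4.26 CPM in optimized libraries. Among them Nefl was called higher, from 0.227 to 1.14 CPM, and it passed the filter on low counts through the optimized libraries only. Map2 and Rbfox3 were not called, and Snap25 and Syt1 were not tested. The markers of astrocytes summed to 22.2 to 25.0 and 10.8 to 12.4 CPM. Most of the astrocyte sum in control was Aldh1l1, which fell from 16.5 to 4.64 CPM, and Gfap, Aqp4 and Slc1a2 were not called. For the oligodendrocyte lineage the ranges were 99.6 to 105 and 118 to 145 CPM. Most of that sum was Mbp, called higher with means of 94.2 and 119 CPM, and Olig2, Sox10, Mog and Pdgfra were not called. For lymphocytes and platelets the ranges were 0.659 to 1.02 and 0.774 to 1.04 CPM, with Cd3e at 0 in all 6 libraries. Optimized library 1 stood apart, with 115 genes at 10 or more counts there and at most 1 count in each other library, against 0 to 5 such genes in the other libraries. Values without it are given where they bear on a result.

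Of the 10 purinergic genes, 3 rose (P2ry12, P2ry13 and Nt5e), 3 fell (P2rx4, Adora2a and Entpd1) and 4 were not called (P2ry6, P2ry2, P2rx7 and Adora3). Over all genes tested, 14.7% were called higher and 15.2% lower. Nt5e and Adora2a are among the 6 called although each passed the filter through its higher group only, and with at least 10 counts in every library 2 of 8 were higher and 2 lower. With control library 1, 2 or 3 or optimized library 2 left out, and with DESeq2, 2 were lower in place of 3. Limma on log2(FPKM + 0.1) also gave 2 lower, and library size alone gave 4. The number lower was 3 without optimized library 1, and also without optimized library 3, where P2ry2 was called and Adora2a was not. The median log2 fold change of the 10 genes was -0.042, against 0.0079 over all genes tested. In 3 genes every optimized library lay above every control library, and in 5 every optimized library lay below, against 21.4% and 22.5% of all genes tested. Summed over the 10 genes, the level was 710 to 760 CPM in control and 548 to 641 CPM in optimized libraries. The direction was thus mixed, within the receptors as well as within the enzymes. The RNA was taken from whole cultures, in which fewer cells of a type and less RNA per cell cannot be told apart.

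**Figure D1:**
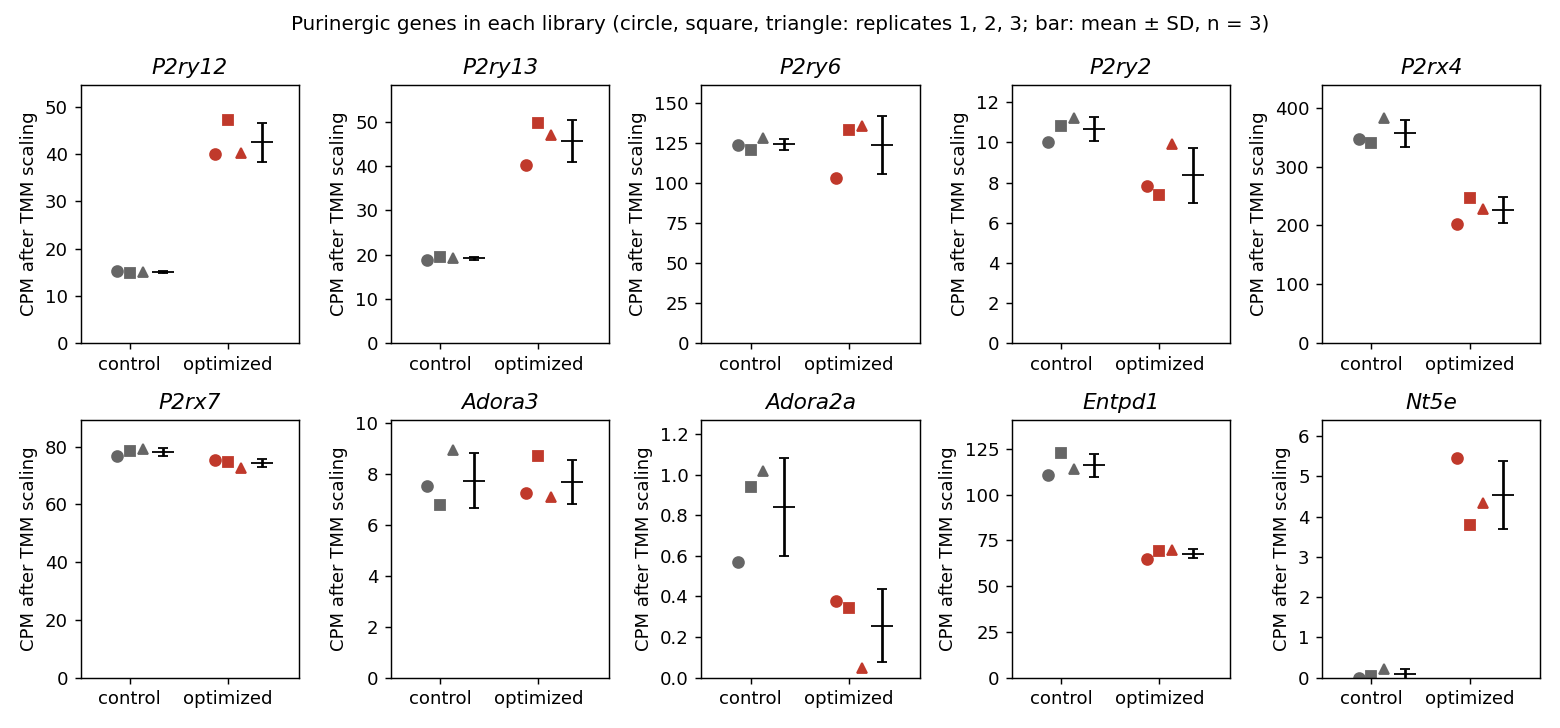
Level of each purinergic gene in every library, in CPM after TMM scaling (vertical axes from 0, each with its own scale), with circles, squares and triangles for replicates 1, 2 and 3 and bars for the mean ± SD of 3 libraries. The optimized libraries (red) sit above the control libraries (grey) for P2ry12, P2ry13 and Nt5e, below them for P2ry2, P2rx4, P2rx7, Adora2a and Entpd1, and among them for P2ry6 and Adora3.

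P2ry12 encodes the ADP receptor by which ramified microglia extend processes to sites of injury, and is widely used as a marker of resting microglia. It had 15.3, 14.9 and 15.0 CPM in control libraries 1 to 3 and 40.1, 47.2 and 40.2 CPM in optimized libraries 1 to 3. The control libraries lay close together and every optimized library was far above them. The means were 15.1 ± 0.244 and 42.5 ± 4.04 CPM (SD, n = 3 each), a 2.82-fold rise, with a log2 fold change of 1.50 (SE, the standard error, 0.10) and an adjusted p of 3.2e-06 by edgeR's quasi-likelihood test. P2ry13, the neighbouring gene, encodes a second ADP receptor of microglia. It had 18.8, 19.5 and 19.3 CPM in control libraries and 40.3, 49.7 and 47.1 CPM in optimized libraries. Again the groups did not overlap. The mean rose from 19.2 ± 0.330 to 45.7 ± 4.82 CPM (SD, n = 3 each), 2.38-fold, and the log2 fold change was 1.25 (SE 0.10, adjusted p 1.2e-05 by edgeR). In the order of log2 fold changes from the highest, P2ry12 was at place 491 and P2ry13 at place 705 of 14618. Without optimized library 1 the log2 fold changes were 1.54 and 1.33.

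Both genes lie on the minus strand of chromosome 3 in GRCm39, P2ry12 at chr3:59123682-59170429 and P2ry13 at chr3:59114539-59118304, 5377 bases apart. Both lie within the span of Med12l on the opposite strand, and 294 exon bases of P2ry12 are shared with it. Med12l had 49, 43 and 46 counts in control against 110, 92 and 87 in optimized libraries, a log2 fold change of 1.26 (adjusted p 0.0014 by edgeR). P2ry12 had 351, 365 and 409 counts and then 847, 1108 and 832. The strand setting of the counting is not stated, so reads on the shared bases cannot be assigned to either gene. The next P2Y receptor gene of the cluster, P2ry14, which encodes a receptor for UDP-glucose, lies 53404 bases from P2ry13 on the same strand and went the other way. It fell from 3.49 ± 0.217 to 1.11 ± 0.140 CPM (SD, n = 3 each), which is a log2 fold change of -1.65 (SE 0.22, adjusted p 0.00034 by edgeR). Within each library the ratio of P2ry12 to P2ry13 counts was 0.814, 0.764 and 0.778 in control and 0.994, 0.949 and 0.855 in optimized libraries. P2ry13 had the higher count in all 6, and the ratio was 1.19-fold higher in optimized libraries (two-sided exact permutation test, p = 0.1, the smallest possible with 3 against 3).

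The promoters of this pair are shown because the genes are neighbours that rose together. Each sequence holds 250 bases before and 50 after the start of the canonical GENCODE M39 transcript, read 5′ to 3′ on the gene's own strand of GRCm39, and capitals mark the motif matches. The windows are chr3:59170380-59170679 (minus strand) for P2ry12 and chr3:59118255-59118554 (minus strand) for P2ry13.
P2ry12: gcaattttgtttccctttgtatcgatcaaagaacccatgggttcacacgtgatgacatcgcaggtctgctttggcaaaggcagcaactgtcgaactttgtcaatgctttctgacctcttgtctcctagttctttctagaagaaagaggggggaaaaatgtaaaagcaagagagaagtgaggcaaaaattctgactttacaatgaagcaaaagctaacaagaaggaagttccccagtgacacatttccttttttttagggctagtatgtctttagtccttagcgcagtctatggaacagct
P2ry13: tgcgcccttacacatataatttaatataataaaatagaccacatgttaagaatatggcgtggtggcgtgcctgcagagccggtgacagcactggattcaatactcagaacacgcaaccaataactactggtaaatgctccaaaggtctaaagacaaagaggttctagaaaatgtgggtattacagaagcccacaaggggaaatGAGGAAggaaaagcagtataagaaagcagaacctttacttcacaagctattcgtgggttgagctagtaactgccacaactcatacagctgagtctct
The motifs searched on both strands were the PU.1 core GAGGAA, a SMAD element CAGACA, the AP-1 element TGACTCA and the cyclic AMP response element TGACGTCA. PU.1 is a defining transcription factor of microglia, and SMAD proteins carry TGF-β signals. The P2ry13 window holds the PU.1 core at position -47 from the start, and the P2ry12 window holds none of the motifs. Of 21770 protein-coding promoters of the same length, 27.5% hold the PU.1 core, 18.9% the SMAD element, 4.70% the AP-1 element and 2.44% the cyclic AMP response element. GC content was 42.0% in the P2ry12 window and 42.3% in the P2ry13 window.

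P2ry6 and P2ry2 encode receptors for UDP and for UTP and ATP, respectively, and P2ry6 is known for triggering microglial phagocytosis. P2ry6 had 124, 121 and 128 CPM in control libraries and 103, 133 and 136 CPM in optimized libraries. Optimized library 1 was the lowest of the 6 and optimized libraries 2 and 3 the highest, so that the groups overlapped. The means were 124 ± 3.50 and 124 ± 18.1 CPM (SD, n = 3 each), and the 95% interval of the log2 fold change was -0.25 to 0.25 (adjusted p 0.99 by edgeR). Without optimized library 1 the log2 fold change was 0.11. P2ry2 was lower by values that did not pass the test. It had 229, 264 and 305 counts in control against 165, 173 and 205 counts in optimized libraries, or 10.6 ± 0.586 and 8.36 ± 1.36 CPM (SD, n = 3 each), with no overlap. The log2 fold change was -0.35 with a 95% interval of -0.67 to -0.031 and an adjusted p of 0.096 by edgeR. It passed without optimized library 3, at -0.49 (adjusted p 0.039).

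These genes are neighbours as well. P2ry6 lies at chr7:100585308-100624173 and P2ry2 at chr7:100640649-100663957, both on the minus strand and 16475 bases apart. The ratio of P2ry6 to P2ry2 counts was 12.4, 11.2 and 11.5 in control and 13.2, 18.1 and 13.7 in optimized libraries, 1.27-fold higher and without overlap (two-sided exact permutation test, p = 0.1). The P2ry6 window holds the AP-1 element at position 13 and the SMAD element at position 29 after the start, and the P2ry2 window holds no match.

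P2rx4, a channel that opens at low ATP and sits largely in lysosomes, had the highest level per length of the 10 genes and fell. It had 347, 340 and 383 CPM in control and 203, 247 and 228 CPM in optimized libraries. Each optimized library lay below the lowest control library. The means were 357 ± 23.3 and 226 ± 22.1 CPM (SD, n = 3 each), 1.58-fold lower, with a log2 fold change of -0.66 (SE 0.10) and an adjusted p of 0.00065 by edgeR. P2rx7, the channel that needs high ATP and is known for driving the NLRP3 inflammasome, was not called. It had 76.6, 78.4 and 79.2 CPM in control and 75.4, 74.5 and 72.7 CPM in optimized libraries. Every optimized library was below every control library, by little. The log2 fold change was -0.073 with a 95% interval of -0.24 to 0.10 (adjusted p 0.52 by edgeR).

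P2rx7 at chr5:122781942-122830400 and P2rx4 at chr5:122845541-122867803 lie on the plus strand, 15140 bases apart. The ratio of P2rx7 to P2rx4 counts was 0.221, 0.230 and 0.207 in control and 0.371, 0.302 and 0.318 in optimized libraries. The ratio, which does not depend on library scaling, was 1.50-fold higher in optimized libraries with no overlap (two-sided exact permutation test, p = 0.1). P2rx7 shares 119 exon bases with Mir8115, which had 144, 166 and 131 counts in control against 108, 130 and 117 in optimized libraries. The promoter of P2rx4 at chr5:122845291-122845590 (plus strand) is shown as that of the channel gene that fell, with the SMAD element, on the other strand at position -141, in capitals.
P2rx4: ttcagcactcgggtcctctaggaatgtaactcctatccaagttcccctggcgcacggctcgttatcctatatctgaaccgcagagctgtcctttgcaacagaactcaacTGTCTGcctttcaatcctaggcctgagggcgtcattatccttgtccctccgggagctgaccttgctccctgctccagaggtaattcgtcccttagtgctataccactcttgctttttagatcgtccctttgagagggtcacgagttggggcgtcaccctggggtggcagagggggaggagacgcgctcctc
In the P2rx7 window the SMAD and AP-1 elements are both on the other strand, at positions -205 and -201, and overlap each other. GC content of the P2rx4 window was 55.3%.

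Adora3 and Adora2a encode adenosine receptors with opposite coupling to cyclic AMP, the first lowering and the second raising it. Adora3 had 7.52, 6.77 and 8.93 CPM in control and 7.24, 8.69 and 7.11 CPM in optimized libraries. The libraries of both groups were interleaved. The log2 fold change was -0.011 with a 95% interval of -0.36 to 0.33 (adjusted p 0.97 by edgeR). Adora3 lies within the span of Tmigd3 on the same strand and shares 154 exon bases with it, and Tmigd3 had 117 to 184 counts in control and 120 to 152 in optimized libraries. Adora2a was scarce, with 13, 23 and 28 counts in control against 8, 8 and 1 in optimized libraries. All optimized libraries were below all control libraries, and the lowest held a single count. Adora2a fell with a log2 fold change of -1.69 (SE 0.55) and an adjusted p of 0.043 by edgeR. It too passed the filter only through the group where it is high and was not tested with at least 10 counts in every library. With no filter it had -1.71 (adjusted p 0.046 by edgeR). The group totals were 64 and 17 counts, and the control to optimized ratio was 3.29 with a 95% exact interval of 1.90 to 5.99 for counting error only. The call was lost without any 1 of 5 libraries, with adjusted p of 0.058, 0.13 and 0.15 without control libraries 1, 2 and 3 and 0.054 and 0.11 without optimized libraries 2 and 3. It held without optimized library 1, at -2.04 (adjusted p 0.022 by edgeR).

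The ratio of Adora3 to Adora2a counts was 13.2, 7.22 and 8.71 in control and 19.1, 25.5 and 147 in optimized libraries. The highest ratio rests on the single Adora2a count of optimized library 3. Over all libraries the ratio was 4.42-fold higher in optimized cultures (two-sided exact permutation test, p = 0.1), a log2 difference of 2.14, which was 1.23 without optimized library 3. Adjusted over the 4 pairs tested of 5 planned, each of the 4 p-values was 0.1. The pair of Entpd1 and Nt5e had no ratio because 1 control library had no Nt5e count.

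Entpd1 encodes CD39, the enzyme that takes ATP and ADP to AMP at the microglial surface, and Nt5e encodes CD73, which takes AMP to adenosine. Entpd1 had 111, 123 and 114 CPM in control and 64.8, 69.1 and 69.7 CPM in optimized libraries. The groups were far apart and each was tight. The means were 116 ± 6.14 and 67.8 ± 2.66 CPM (SD, n = 3 each), 1.71-fold lower, with a log2 fold change of -0.77, SE 0.082 and an adjusted p of 7e-05 by edgeR. Nt5e, the next enzyme of the chain, went the other way. It had 0, 1 and 6 counts in control against 115, 89 and 90 counts in optimized libraries. The gene was close to absent from the counts of control cultures and present in every optimized library. The log2 fold change was 5.53 (SE 0.53), with a 95% interval of 4.34 to 6.71 (adjusted p 3.3e-05 by edgeR). Nt5e passed the filter only through the group where it is high, and a filter of at least 10 counts in every library left it untested. The size depends on few control counts. Group totals of 7 and 294 gave a ratio of 48.1 with a 95% exact interval of 23.0 to 121 for counting error only, and the log2 fold change was 7.41 without control library 3 and 5.37 without optimized library 1.

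CD73 is also found on fibroblasts and endothelial cells, so the markers of these cells are given beside it. The 5 fibroblast and pericyte markers summed to 19.3 to 25.5 CPM in control and 19.9 to 77.0 CPM in optimized libraries, and none of the 5 was called. The 4 endothelial markers summed to 78.8 to 94.4 CPM in control and 271 to 349 CPM in optimized libraries, most of it Flt1, which was called higher with a log2 fold change of 1.85 (adjusted p 2.8e-06 by edgeR). Pecam1 had 5 to 20 counts and Cdh5 23 to 55 counts in the 6 libraries, neither called, and Cldn5 was at 0 in 5 of the 6. The part of these markers in the Nt5e result was not tested.

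The promoters of the enzyme pair are shown because neighbouring steps of 1 chain moved in opposite directions, Entpd1 at chr19:40647964-40648263 (plus strand) and Nt5e at chr9:88208839-88209138 (plus strand), with PU.1 cores in capitals.
Entpd1: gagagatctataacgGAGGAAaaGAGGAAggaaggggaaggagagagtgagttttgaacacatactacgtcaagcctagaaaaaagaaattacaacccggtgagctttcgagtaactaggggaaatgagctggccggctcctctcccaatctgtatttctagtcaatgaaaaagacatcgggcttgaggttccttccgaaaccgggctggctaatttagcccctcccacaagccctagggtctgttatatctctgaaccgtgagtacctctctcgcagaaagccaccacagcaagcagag
Nt5e: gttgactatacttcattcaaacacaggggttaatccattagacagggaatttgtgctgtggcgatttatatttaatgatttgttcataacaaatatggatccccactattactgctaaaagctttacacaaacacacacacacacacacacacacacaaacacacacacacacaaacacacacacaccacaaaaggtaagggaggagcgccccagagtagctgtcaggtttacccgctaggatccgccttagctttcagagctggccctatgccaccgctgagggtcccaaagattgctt
The Entpd1 window holds the PU.1 core at positions -235 and -227, and the Nt5e window holds none of the motifs. GC content was 48.7% and 45.0%. Of the 10 windows, 3 hold the PU.1 core (P2ry13, Adora3 and Entpd1), 3 the SMAD element, 3 the AP-1 element and 0 the cyclic AMP response element. Those of P2ry12, P2ry2, Adora2a and Nt5e hold none. The canonical start lies inside the annotated gene for P2ry6, P2ry2, Adora3 and Entpd1, and which starts these cells use was not tested. Entpd1 lies at chr19:40600810-40731585 and shares 99 exon bases with the predicted gene Gm41846, and Nt5e lies at chr9:88209089-88254146.

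**Figure D2:**
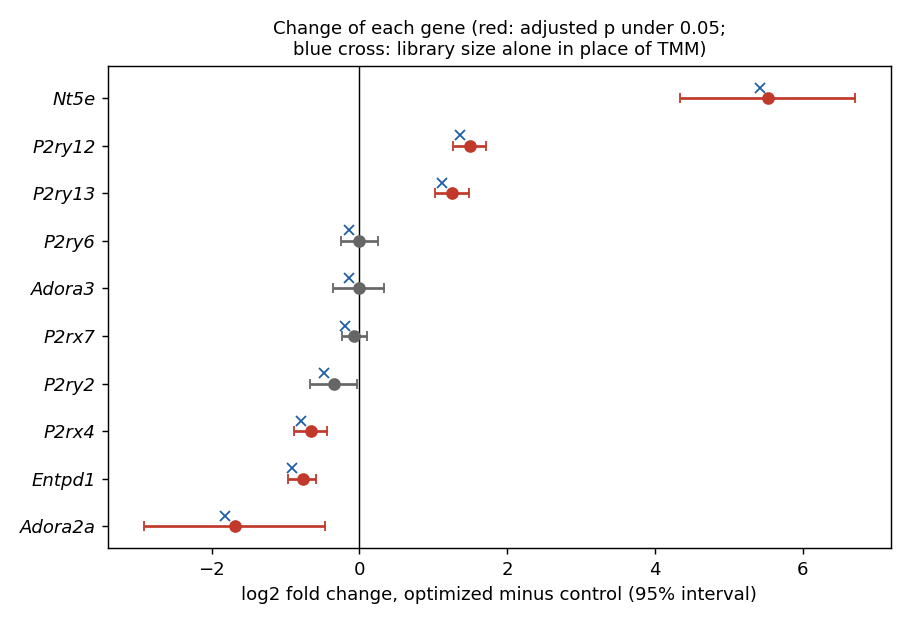
Log2 fold change of each purinergic gene, optimized minus control, with its 95% interval from edgeR's quasi-likelihood fit (red, adjusted p under 0.05), and the value with library size alone as a blue cross. Nt5e is far to the right at 5.53, P2ry12 and P2ry13 follow at 1.50 and 1.25, and Adora2a, Entpd1 and P2rx4 lie to the left of 0.

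Levels between genes were compared per length, as the deposited FPKM values. In control cultures P2rx4 was the highest at 133 ± 3.67 FPKM, followed by P2ry6 at 50.1 ± 0.736, Entpd1 at 23.8 ± 1.75 and P2rx7 at 12.3 ± 0.345 FPKM (SD, n = 3 each). P2ry13 at 7.72 ± 0.303 and P2ry12 at 5.71 ± 0.251 FPKM came next. P2ry2 at 3.53 ± 0.137 and Adora3 at 3.31 ± 0.349 FPKM overlapped, and Adora2a at 0.289 ± 0.0780 and Nt5e at 0.0239 ± 0.0316 FPKM were last. In optimized cultures P2rx4 at 76.3 ± 4.64 and P2ry6 at 45.4 ± 5.75 FPKM still led. P2ry13 at 16.6 ± 1.23 and P2ry12 at 14.6 ± 0.769 FPKM overlapped each other and now stood above Entpd1 at 12.6 ± 0.466 and P2rx7 at 10.6 ± 0.50 FPKM. Adora3 at 2.98 ± 0.216 and P2ry2 at 2.52 ± 0.463 FPKM overlapped, then came Nt5e at 1.17 ± 0.262 and Adora2a at 0.0797 ± 0.0567 FPKM. All other neighbours in these orders did not overlap between libraries. The order between the ADP receptors and Entpd1 was thus turned, as was that between Nt5e and Adora2a.

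Of the FPKM summed over the 10 genes, P2rx4 held 55.4 ± 1.23% in control and 41.7 ± 0.697% in optimized cultures (SD, n = 3 each). P2ry12 held 2.25% to 2.49% in control and 7.36% to 8.39% in optimized libraries. P2ry13 held 3.08% to 3.36% and 8.95% to 9.20%. With counts per kilobase of annotated exon in place of the deposited FPKM, the share of P2rx4 was 44.4% and 30.3%, so that it depended on the gene length used while its fall did not.

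**Figure D3:**
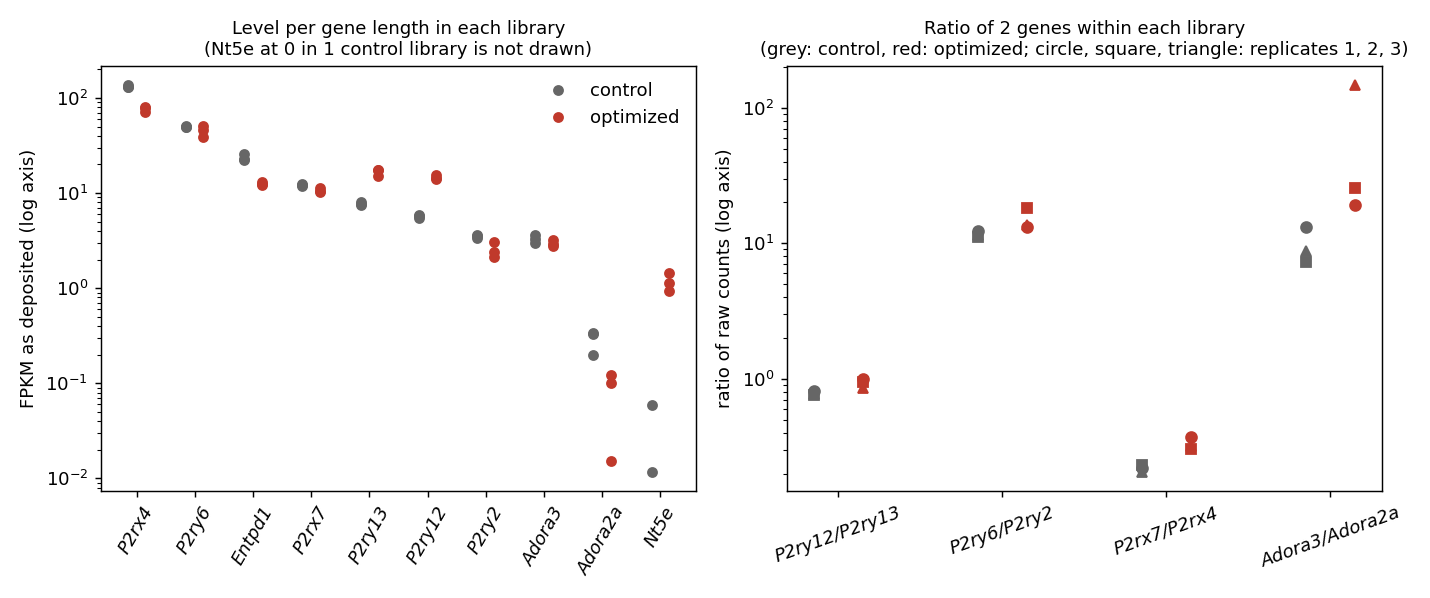
Left, FPKM of each purinergic gene in every library on a log axis, where P2ry13 and P2ry12 pass Entpd1 and P2rx7 in the optimized libraries (red). Right, the ratio of raw counts of 4 gene pairs within each library on a log axis, with circles, squares and triangles for replicates 1, 2 and 3, where all optimized ratios lie above all control ratios.

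The genes whose pattern over the 6 libraries was most like that of P2ry12 were Amz1, Cyth1 and Tpbgl. The root mean square difference of their centred log2 CPM from that of P2ry12 was 0.041, 0.051 and 0.052 among 9824 genes compared. Their own log2 fold changes were 1.48, 1.43 and 1.51, and values near that of P2ry12 follow from how these genes were picked. For Adora2a, the gene of the 10 with the lowest log2 fold change, the nearest were Zfp268, Muc6 and Pnp2 at 0.14, 0.15 and 0.16. These genes' log2 fold changes of -0.74, -0.77 and -0.83 are smaller than that of Adora2a, because the pseudocount of 0.5 CPM is of the size of its level and shrinks its change on this scale.

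Beyond the 10 genes, 62 further genes of the pathway were listed, of which 44 were tested. Of these, 14 rose, 12 fell and 18 were not called, with a median log2 fold change of -0.0014, against 14.7% higher and 15.2% lower over all genes tested. Some of them passed the filter through their higher group only, and with at least 10 counts in every library 13 of 40 were higher and 11 lower. Without optimized library 1, 14 rose and 11 fell. Fewer were called higher on FPKM values with limma, where no TMM factors were applied and the genes tested differed. There the log2 fold change of the median gene moved by -0.13 to -0.14, against -0.13 with library size alone. DESeq2 called 14 of 61 higher, against 2136 of 24032 over all genes. With no filter on low counts edgeR called 16 of 61, against 2240 of 24032. Limma called 8 of 61 higher on log2(FPKM + 1), against 1307 of 24032 over all genes tested. On log2(FPKM + 0.1) it called 8 of 61, against 1312 of 24032 over all genes. At a mean FPKM of at least 1 it called 6 of 34, against 1176 of 11572. Library size alone gave 9 of 44, against 1513 of 14618.

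Among other P2Y and related receptors, 2 of 5 tested rose and 1, P2ry14, fell, against 14.7% higher and 15.2% lower over all genes tested. Gpr34, a receptor for lysophosphatidylserine that is used as a microglial marker, rose from 47.8 ± 6.68 to 121 ± 12.2 CPM (SD, n = 3 each), which is a log2 fold change of 1.33 (adjusted p 2.1e-05 by edgeR). P2ry1, a further ADP receptor, rose with a log2 fold change of 1.03 (SE 0.31, adjusted p 0.032). Gpr17 and P2ry10b were not called, at 0.29 and -0.29. Of the other P2X genes, P2rx6 rose from 6, 7 and 11 counts to 32, 31 and 30 (log2 fold change 2.14, adjusted p 0.00094 by edgeR), and P2rx1 was not called at 0.15. The remaining adenosine receptors moved apart. Adora1, which lowers cyclic AMP, had 0, 5 and 9 counts in control against 49, 41 and 50 in optimized libraries, a ratio of totals of 11.4 with a 95% exact interval of 6.60 to 21.5 for counting error (adjusted p 0.0011 by edgeR). Adora2b, which raises cyclic AMP, had 23, 27 and 19 counts in control against 3, 11 and 6 in optimized libraries and fell with a log2 fold change of -1.60 (adjusted p 0.025 by edgeR). P2rx6 and Adora1 passed the filter through the optimized libraries only and Adora2b through the control libraries only.

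Of 8 other ectoenzymes, 3 were tested and all 3 were called, against 29.8% of all genes tested. Enpp1, which cleaves ATP to AMP and pyrophosphate, rose 3.51-fold from 15.2 ± 1.64 to 53.5 ± 2.96 CPM (SD, n = 3 each), which is a log2 fold change of 1.81 (adjusted p 1.3e-06 by edgeR). Cd38, the main NAD-consuming ectoenzyme, fell from 69.6 ± 9.52 to 27.4 ± 2.97 CPM (SD, n = 3 each), which is a log2 fold change of -1.34. Bst1, its relative, fell with -0.62 (adjusted p 0.039). The enzymes that act on ATP thus differed in direction, with Entpd1 lower and Enpp1 higher. Of 4 intracellular apyrases, Entpd4 and Entpd5 rose with log2 fold changes of 0.58 and 0.49.

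Of 7 tested genes of adenosine metabolism, none rose and 2 fell, against 14.7% higher and 15.2% lower over all genes tested. Ampd3, an AMP deaminase, had a log2 fold change of -1.31 (SE 0.095, adjusted p 5e-06 by edgeR), and Pnp, the purine nucleoside phosphorylase, which has the close copy Pnp2 with which it can share reads, had -0.55. Ada and Adk, which remove adenosine by deamination and phosphorylation, were not called, at 0.13 and 0.039. Of 4 tested nucleoside transporters, the lysosomal Slc29a3 rose with 0.29, and Slc28a2 and the equilibrative Slc29a1 fell with -1.50 and -0.39. Of 5 tested genes of nucleotide release, Slc17a9, the vesicular nucleotide transporter, rose with 1.19 and Lrrc8a, a volume-regulated anion channel subunit, with 0.42. The pannexin gene Panx1 fell with -1.0 (adjusted p 0.00028 by edgeR). Calhm6, of a family of large-pore channels, fell from 12.5 ± 1.70 to 1.37 ± 0.358 CPM (SD, n = 3 each), which is a log2 fold change of -3.18. The gene of vesicular release was thus called higher, and of the channel genes Lrrc8a was higher and Panx1 and Calhm6 lower.

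Of 12 genes of receptor coupling and effectors, all tested, 4 rose and 2 fell, against 14.7% higher and 15.2% lower over all genes tested. Gnas, the stimulatory G protein alpha subunit, rose with a log2 fold change of 0.71, Adcy7 with 0.53, Pik3cg with 0.43 and Kcnk13, the potassium channel THIK-1 that is known to set microglial surveillance, with 0.49 (adjusted p 0.0012 by edgeR). Pik3r5 and Arrb2 fell with -0.60 and -0.32. The inhibitory subunits Gnai2 and Gnai3, through which P2ry12 signals, were not called, at -0.058 and -0.0048.

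**Figure D4:**
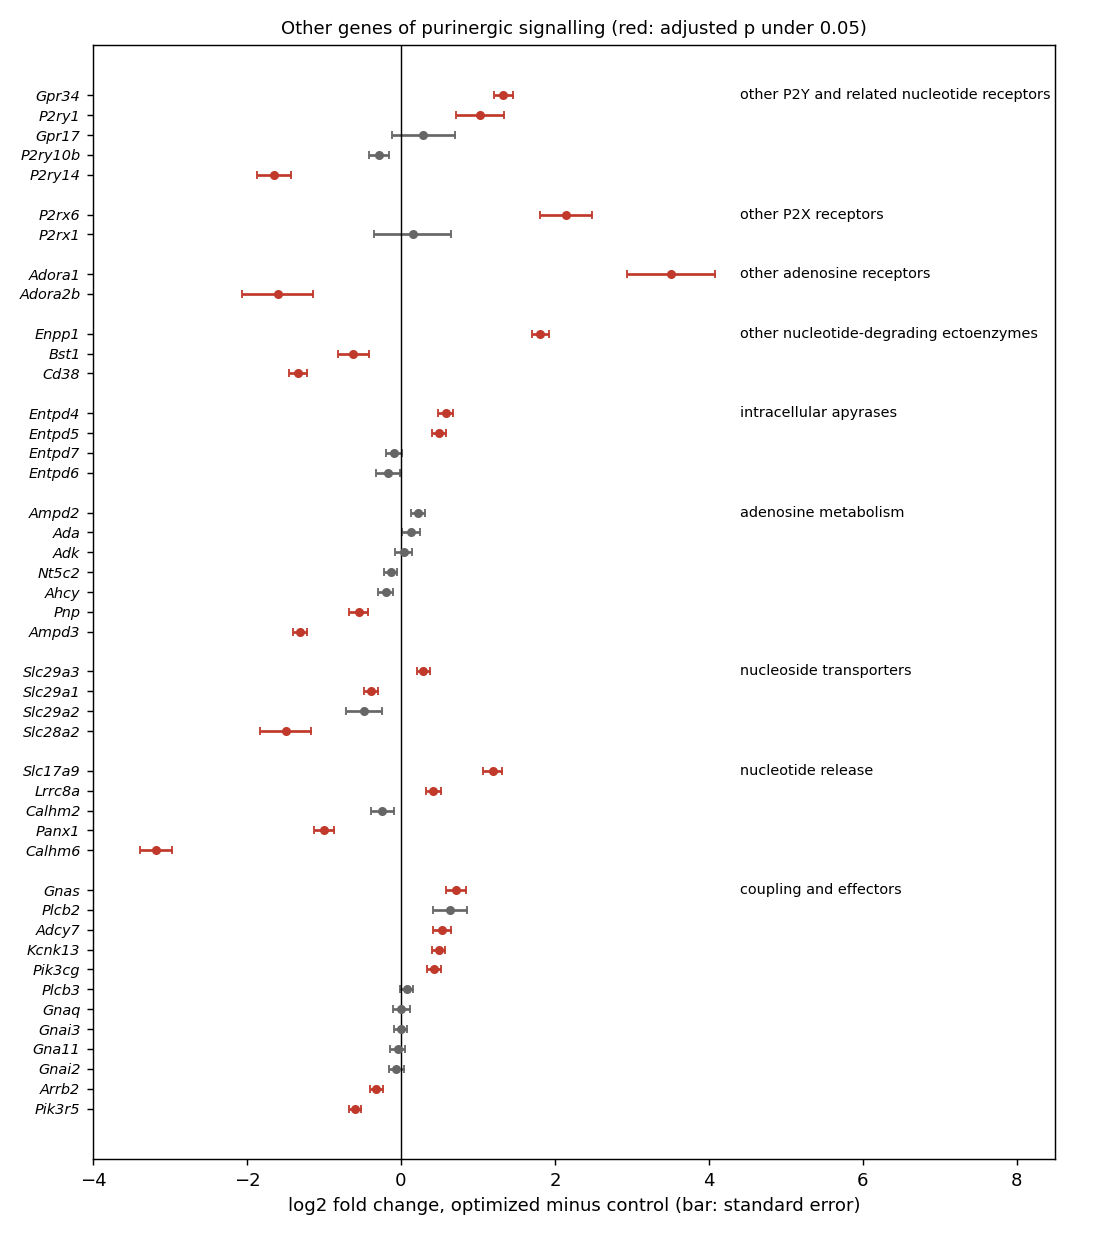
Log2 fold change of the 44 other genes of purinergic signalling that were tested, optimized minus control, with bars for the standard error and red for an adjusted p under 0.05 by edgeR, grouped by role. Adora1 is highest at 3.51 and Calhm6 lowest at -3.18, and groups such as the adenosine receptors and nucleotide release hold genes on both sides of 0.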

How the data were processed

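RNA of 3 control and 3 stimulated cultures was analysed, each library counted as 1 replicate. According to the labels and the study's methods, the authors aligned read pairs with HISAT2 to mm39, which is GRCm39, assigned them to genes with featureCounts, and deposited raw counts per gene. FPKM values, also made by the authors, were deposited beside them. Versions, annotation and strand setting are not given in the sources used here.

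Counts were scaled with TMM factors and compared with edgeR 4.0.16 in R 4.3.3 (quasi-likelihood test, genes kept by filterByExpr, Benjamini-Hochberg adjustment over 14618 genes, threshold 0.05). Other settings used DESeq2 1.42.0 and limma 3.58.1. A standard error is the size of the log2 fold change divided by the square root of F. The steps were tested on simulated data. The study describes the libraries of a condition as biological replicates, and the labels give replicate numbers only. Libraries of a group differed by more than sampling noise. Intervals of count ratios cover counting error only. Common dispersion was 0.016, a coefficient of variation of 0.13.

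The genes and lists were chosen with earlier results of these data known. Named were the 10 genes, listed pathway genes, markers, genes sharing exons, and the 3 genes most like P2ry12 and the gene with the lowest log2 fold change, among tested genes with a mean of at least 5 CPM (pseudocount 0.5) that are not predicted genes. Pnp2 and Gm41846 come from these rules. Coordinates are those of GENCODE M39, in which 35087 of 41079 symbols were found. A marker gene of the microglial list is not reported here.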

Additional observations from a re-analysis of the deposited data

How the results depend on the processing

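Nt5e, P2ry12 and P2ry13 stayed higher and P2rx4 and Entpd1 lower, past the threshold, under every setting that tested them; at least 10 counts in every library and a mean FPKM of at least 1 tested neither Nt5e nor Adora2a. Adora2a had -1.72 with DESeq2 (adjusted p-value 0.078), -1.15 with limma on log2(FPKM + 0.1), and -2.04 to -1.23 with each library left out in turn. P2ry2 passed with library size alone (-0.48, adjusted p-value 0.035) and with limma at a mean FPKM of at least 1 (-0.37, adjusted p-value 0.036), and ranged from -0.49 to -0.28 with libraries left out. P2ry6 changed sign with relative log expression factors (0.00077) and at least 10 counts in every library (0.0023), and ranged from -0.071 to 0.11 with libraries left out, as Adora3 did from -0.12 to 0.10, neither called. Limma on log2(FPKM + 1) called 1307 of 24032 genes higher, and limma on log2(FPKM + 0.1) called 1312 of 24032. At a mean FPKM of at least 1 limma called 1176 of 11572 higher, against 1513 of 14618 with library size alone. Among the other purinergic genes these limma counts were 8 of 61 tested, 8 of 61 and 6 of 34, against 9 of 44 with library size alone. The share of P2rx4 was 44.4% and 30.3% per annotated exon length. Nt5e had 4.69 with a prior count of 2 and 5.59 from group totals, both chosen after seeing the data, and 1.08 on the log2(FPKM + 1) scale, which understates low genes. Same-numbered libraries deviated together with correlations of 0.35, -0.02 and 0.21, so the numbers were not taken to pair them; with a replicate block, 2401 genes were higher and 2523 lower, Adora2a had -1.71 (adjusted p-value 0.05 after rounding), and no call of the 10 genes changed, with 14 higher and 12 lower among the other purinergic genes.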

Other observations

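Of the listed purinergic genes, 3 were among those counted almost only in optimized library 1. Enpp3, an ectoenzyme of basophils, mast cells and some epithelia, had 140 counts there and 0 in the other 5 libraries. Slc28a3, a concentrative nucleoside transporter, had 49 counts there and 1 in optimized library 2. Alpl, the tissue-nonspecific alkaline phosphatase, had 13 counts there and 1 in control library 2. None of the 3 had enough counts across libraries to be tested between the groups.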
